A study of Mus musculus with 4 samples.

Results

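Chemokines are small secreted proteins that draw leukocytes along a gradient, and they are named by the spacing of their conserved cysteines as CC (Ccl), CXC (Cxcl), C (Xcl) and CX3C (Cx3cl) ligands. They signal through G protein-coupled receptors on leukocytes (Ccr, Cxcr, Cx3cr), while the atypical receptors (Ackr) bind ligands without classical signalling and remove or transport them. In the mammary gland they guide macrophages and eosinophils during duct growth, plasma cells during lactation, and lymphocytes into the lymph node that lies within some glands. The genes described here are all probe sets with 1 gene symbol that starts with Ccl, Cxcl, Ccr, Cxcr or Ackr and a digit, or that is Xcl1, Cx3cl1 or Cx3cr1. The rule used names only, and it found 70 of 22690 probe sets and 52 of 12393 genes. These were 32 ligands, 16 signalling receptors and 4 atypical receptors. A further 4 probe sets with such a symbol carried several symbols and were left out, so the Ccr7 ligands Ccl19 and Ccl21a were not analysed here.

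RNA came from the mammary glands of female nulliparous FVB mice, and each of 4 arrays held the pooled RNA of 5 mice. Wild-type littermates and MMTV-PPARd mice, which carry PPARd under the mouse mammary tumour virus promoter, a promoter used to drive genes in mammary epithelium, ate standard chow or chow with GW501516 for 1 week. The wild-type mice were matched to the transgenic mice by age. GW501516 is a synthetic agonist of the nuclear receptor PPARd. Its content in the chow was labelled 0.005% in one place and 0.001% in another, and the values cannot settle this. No group had a second array, so no difference has a replicate check, no test was run, and the values describe these 4 pools.

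Values are probe set intensities on a linear scale. A floor of 20.5, the 25th percentile over the 4 arrays, replaced each lower reading, so a difference with 1 side below it is written as at least N-fold. A gene was kept if its brightest probe set reached 139, the median of all values, on at least 1 array, and 27 of the 52 genes were kept (19 ligands, 6 receptors and 2 atypical receptors), against 7835 of all 12393 genes. Because a gene can be kept through the 1 array where it is high, shares among kept genes are descriptions. Of the 27, 7 were kept through wild type on chow alone (Ccl2, Ccl7, Ccl22, Ccr6, Ccr7, Ccr9 and Cxcr3) and 0 through any other single array, so counts over all 52 genes are given as well. A difference was counted from 2-fold upward.

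Ppard read 2.1 and 1.5 in wild type on chow and GW501516, and 1943 and 4224 in transgenic mice on the same diets. The array of transgenic mice on chow stood apart from the others in Gapdh (3573 against 8730 to 12274) and in the control transcript BioB (32.4 against 438.1 to 519.0). All 10 luminal epithelial markers and all 6 adipocyte markers on the array lay above the floor in all pools. Marker sums differed between the pools for some cell types, luminal epithelium included, and less for others. Luminal markers summed to 21270 and 23870 in wild type on chow and GW501516, and to 31640 and 36630 in transgenic mice. Endothelial markers summed to between 3330 and 3732. Summed intensities of 13 T cell markers were 7016 in wild type on chow, 2366 in transgenic on chow, 645.7 in wild type on GW501516 and 562.1 in transgenic on GW501516. In the same order, 9 B cell markers summed to 2983, 1499, 243.5 and 171.3, 10 macrophage markers to 21320, 14720, 20670 and 19060, and 12 skeletal muscle markers to 11300, 26370, 100400 and 95740. In a bulk sample, fewer cells of a type and less RNA per cell cannot be told apart.

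**Figure D1:**
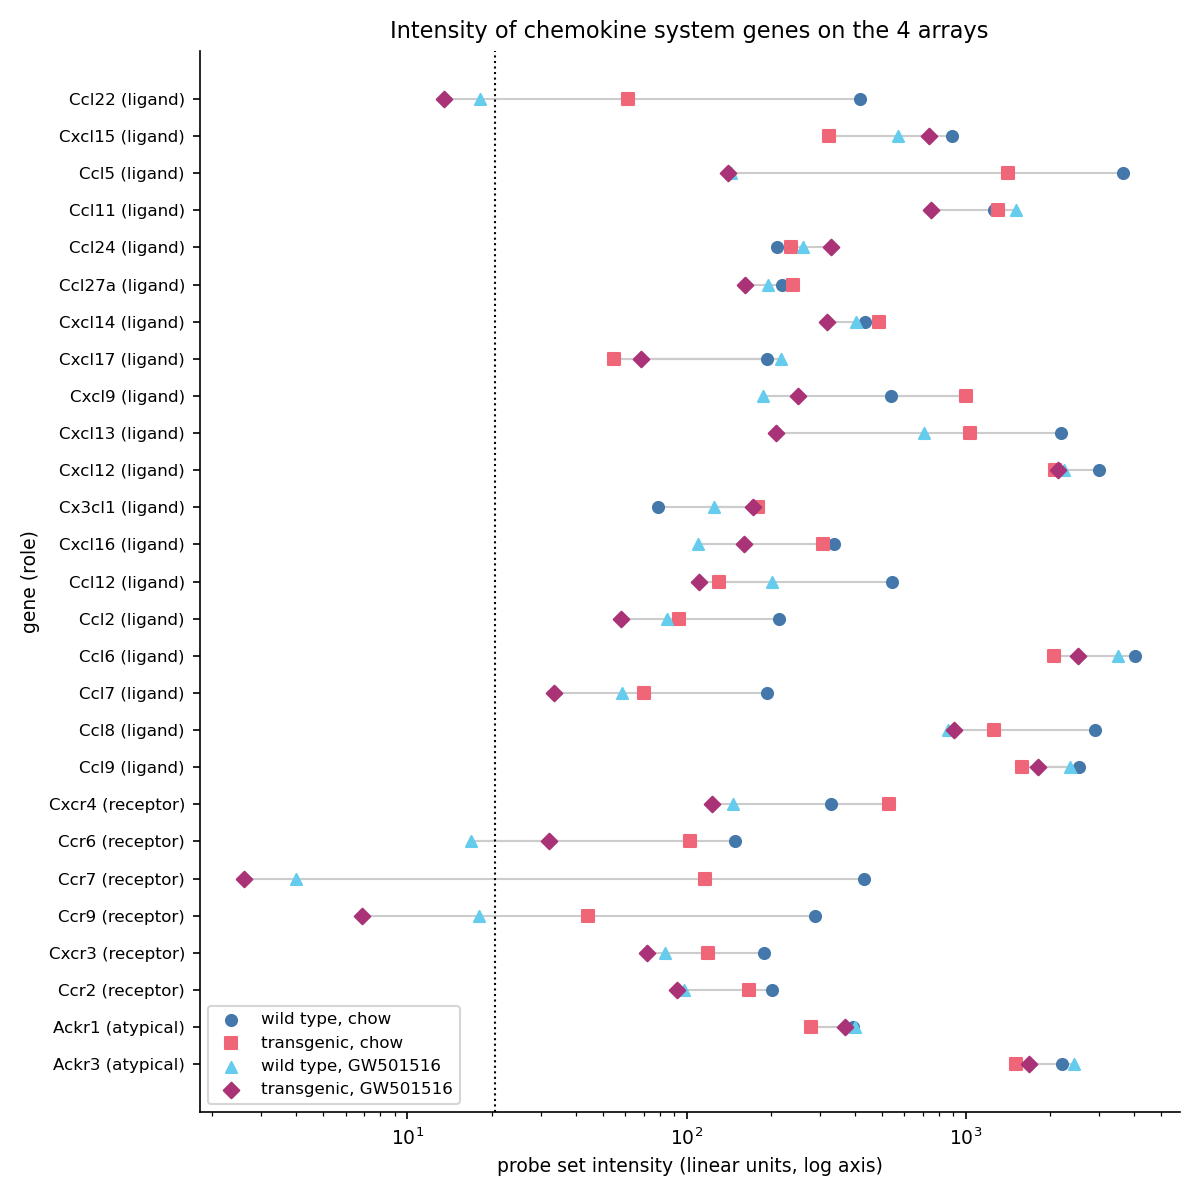
Intensity (linear units on a log axis) of the 27 kept genes on the 4 arrays, 1 marker per pool, with the floor of 20.5 as a dotted line. Each row is its own probe set, so levels compare along a row and not between rows. Wild type on chow is the highest of the 4 pools for 17 genes.

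Wild type on chow was the most frequent highest pool. Of the 46 genes above the floor on at least 1 array, 24 (52.2%) had their highest intensity there and 14 (30.4%) in transgenic mice on chow, against 25.7% and 31.2% of all genes so measured. Among the 27 kept genes the count was 17 (63.0%, against 25.4% of all kept genes), which the filter favours through the 7 genes named above. With GW501516 in wild type, 15 of 27 genes (55.6%) were at least 2-fold lower, against 3.25% of all kept genes, and 0 were at least 2-fold higher, against 3.18%. The median log2 difference was -1.16, against -0.037 over all kept genes. Without a filter, 19 of 52 genes (36.5%) were at least 2-fold lower, against 3.18% of all genes. With GW501516 in transgenic mice, 9 of 27 were at least 2-fold lower (4.07% of all kept genes) and 1 was higher (3.98%), with a median of -0.69. Without a filter, 16 of 52 (30.8%) were lower, against 3.86% of all genes. The comparisons in the 2 genotypes share no array. Over all 52 genes 13 were lower in both, 68.4% of the 19 in wild type and 81.2% of the 16 in transgenic mice, and over all genes the overlap was 42.1% and 34.7% of the respective lists. The 3 genes lower in transgenic mice and not counted in wild type were Ccl20, Cx3cr1 and Cxcl2. Among kept genes, all 9 were among the 15, or 60.0% of them, where all kept genes gave 37.6% of the transgenic list and 47.1% of the wild-type list. The T and B cell marker sums given above moved the same way in both comparisons, and their part in these counts was not tested.

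The transgene on chow also went with lower intensities. Of the 27 genes, 11 were lower by 2-fold or more in transgenic mice (3.7% of all kept genes) and 1 was higher (5.46%), with a median of -0.67. Without a filter, 12 of 52 (23.1%) were lower, against 3.51% of all genes, and 4 (7.69%) higher, against 4.53%. On GW501516 the genotypes differed least, with 3 of 27 genes lower by 2-fold or more in transgenic mice (1.19% of all kept genes), 0 higher (2.82%) and a median of -0.11. Without a filter, 4 of 52 (7.69%) were lower, against 1.2% of all genes, and 0 higher, against 2.37%. Of the 8 kept genes that reached 2-fold in none of the 4 comparisons, 2 were the atypical receptors Ackr1 and Ackr3. The other 6 were the ligands Ccl6, Ccl9, Ccl24, Ccl27a, Cxcl12 and Cxcl14.

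**Figure D2:**
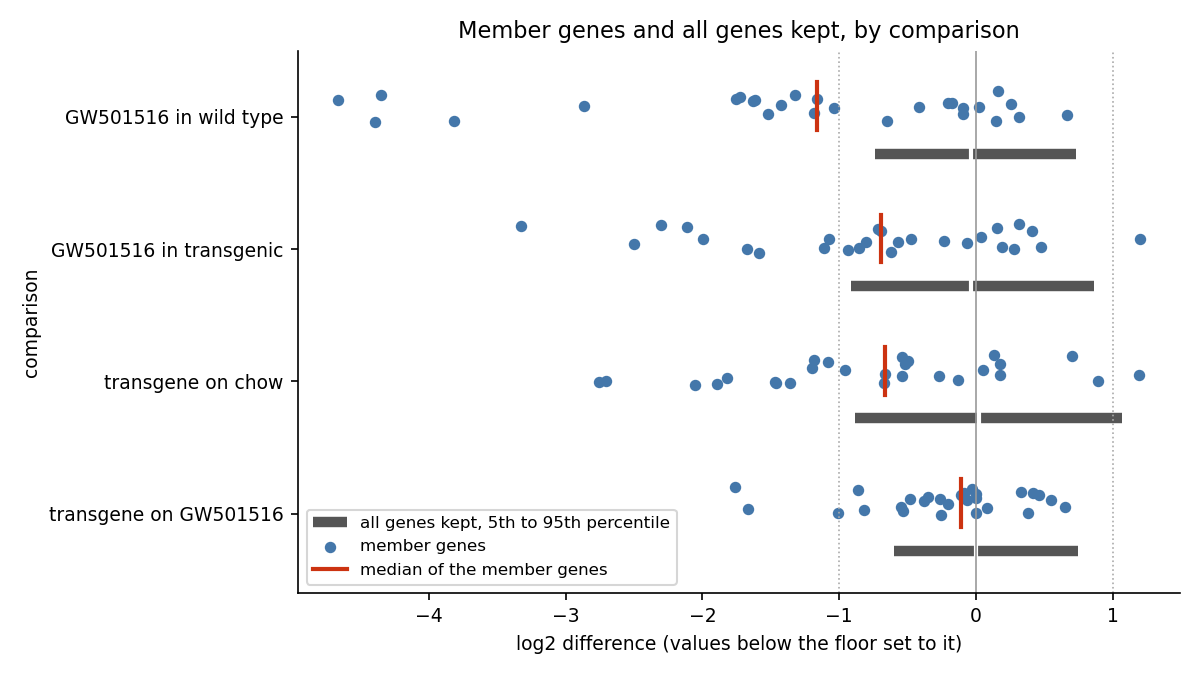
Log2 difference in each of the 4 comparisons, with values below the floor set to it. Points are the 27 kept genes with their median as a red line, and dark bars span the 5th to 95th percentile of all 7835 kept genes with their median as a white tick. The member medians run from -1.16 with GW501516 in wild type to -0.11 for the transgene on GW501516.

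Among ligands of lymphoid tissue, Cxcl13 had lower values with either factor. It attracts B cells to follicles, and its probe set read 2189 in wild type on chow, 1032 in transgenic on chow, 708.7 in wild type on GW501516 and 209.4 in transgenic on GW501516. The intensity was 3.09-fold lower with GW501516 in wild type and 4.93-fold lower in transgenic mice. It was 2.12-fold lower with the transgene on chow and 3.38-fold lower on GW501516, so that Cxcl13 was the 1 kept gene at least 2-fold lower in all 4 comparisons. Its second probe set read 1424, 820.5, 514.9 and 180.8 in the same order of pools. With the mean over both, the transgene difference on chow was -0.94 (log2), short of 2-fold. Cxcl12, which holds lymphocytes and progenitors in tissues, read 2993, 2085, 2237 and 2133, and its log2 differences lay between -0.52 and 0.033. A second Cxcl12 probe set gave 0.91 for GW501516 in transgenic mice where the first gave 0.033. Markers of lymph node vessels and stroma, 7 on the array, summed to 12840, 9900, 1960 and 5736 in the same order of pools. Glycam1, a ligand for L-selectin on lymph node vessels that mammary epithelium also secretes, read 9535, 8128, 2.2 and 4207. Except in wild type on GW501516, Glycam1 made up most of that sum. Of the other kept markers, Lyve1 read 2583, 966.7, 1387 and 1012, and Pdpn 530.4, 569.6, 514.1 and 468.6. Madcam1 read 87.9, 202.6, 42.8 and 46.1. The part of lymph node tissue in the Cxcl13 values was not tested.

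Ccl5, a product of activated T cells, showed the largest measured difference of the kept genes. It read 3633 in wild type on chow, 1417 in transgenic on chow, 143.6 in wild type on GW501516 and 140.9 in transgenic on GW501516. Both GW501516 pools were low, by 25.3-fold in wild type and 10.1-fold in transgenic mice, and they differed from each other by 1.02-fold. Ccl22, which dendritic cells and macrophages make to attract Ccr4-bearing T cells, read 417.8 and 61.7 in wild type and transgenic on chow. It lay below the floor in both GW501516 pools, at least 20.4-fold lower in wild type and at least 3.01-fold lower in transgenic mice. Over the whole T cell list, 11 of 12 kept markers were at least 2-fold lower with GW501516 in each genotype and 11 of 12 with the transgene on chow. The shares of all kept genes were 3.25% (wild type), 4.07% (transgenic) and 3.7% (transgene on chow). The exception, Zap70, was 1.62-fold and 1.23-fold higher with GW501516 in wild type and transgenic mice. Cd3e, Cd247, Cd5, Cd8a, Cd8b1 and Cd28 were kept through wild type on chow alone, so these had to be high there. Markers below the floor numbered 1 of 13 on each chow array, 5 on wild type GW501516 and 7 on transgenic GW501516. Cd3d, a subunit of the T cell receptor complex, read 1841 and 533.1 on chow and 30.8 and 40.4 on GW501516, in wild type and transgenic mice. The part of these cells in the Ccl5 and Ccl22 values was not tested.

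With GW501516 in wild type, the monocyte attractants split by family branch, and less clearly in the other comparisons. Ccl2, Ccl7, Ccl8 and Ccl12 belong to the monocyte chemoattractant proteins. Ccl2, the main Ccr2 ligand, read 213.6 in wild type on chow, 94.0 in transgenic on chow, 85.3 in wild type on GW501516 and 58.2 in transgenic on GW501516. In the same order Ccl7 read 194.5, 70.5, 58.8 and 33.4, and Ccl12, a mouse ligand of Ccr2, read 543.4, 130.8, 202.2 and 111.0. Ccl8 read 2903, 1264, 860.6 and 907.7. All 4 were highest in wild type on chow. With GW501516 in wild type they were 2.50-fold (Ccl2), 3.31-fold (Ccl7), 3.37-fold (Ccl8) and 2.69-fold (Ccl12) lower. In transgenic mice, Ccl7 was 2.11-fold lower and the others by 1.62-fold, 1.39-fold (Ccl8) and 1.18-fold (Ccl12). The transgene on chow gave 2.27-fold, 2.76-fold, 2.296-fold and 4.15-fold lower values for Ccl2, Ccl7, Ccl8 and Ccl12. That comparison and the one of GW501516 in wild type share the wild-type chow array.

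The other branch, Ccl6 and Ccl9, are mouse CC chemokines of myeloid cells. Ccl6 read 4033, 2073, 3505 and 2507, and Ccl9 2529, 1590, 2364 and 1812, in wild type on chow, transgenic on chow, wild type on GW501516 and transgenic on GW501516. Neither reached 2-fold, with differences of -0.20 and -0.098 (log2) for GW501516 in wild type. Their lowest pool was transgenic on chow, at -0.96 for Ccl6 and -0.67 for Ccl9 against wild type, and a second Ccl9 probe set gave -1.13. Macrophage markers, of which 10 of 10 were kept, had a median of -0.23 with GW501516 in wild type with 1 of them at least 2-fold lower, and a median of -0.79 with the transgene on chow with 3 lower and 1 higher.

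Genes that lie next to each other in the genome differed in size and direction. In the RefSeq gene order (GRCm38.p6), Ccl2, Ccl7, Ccl11, Ccl12, Ccl8 and Ccl1 follow one another with at most 5 protein-coding genes between members, and Ccl1 was below the floor in all pools. With GW501516 in wild type, 4 of the 5 kept genes of this cluster were at least 2-fold lower, while Ccl11, which lies between Ccl7 and Ccl12, had a difference of 0.26 (log2). Ccl11 is eotaxin, the eosinophil attractant, and read 1259, 1306, 1507 and 747.7 in wild type on chow, transgenic on chow, wild type on GW501516 and transgenic on GW501516. It was 2.02-fold lower with the transgene on GW501516, which was -0.99 (log2) when arrays were shifted to one median. In the neighbouring row of Ccl5, Ccl9, Ccl6, Ccl3 and Ccl4, 1 of 3 kept genes, Ccl5, was at least 2-fold lower with GW501516 in wild type. Ccl24, the other eosinophil attractant, read 210.1, 237.1, 261.4 and 329.0 and reached 2-fold in no comparison.

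**Figure D3:**
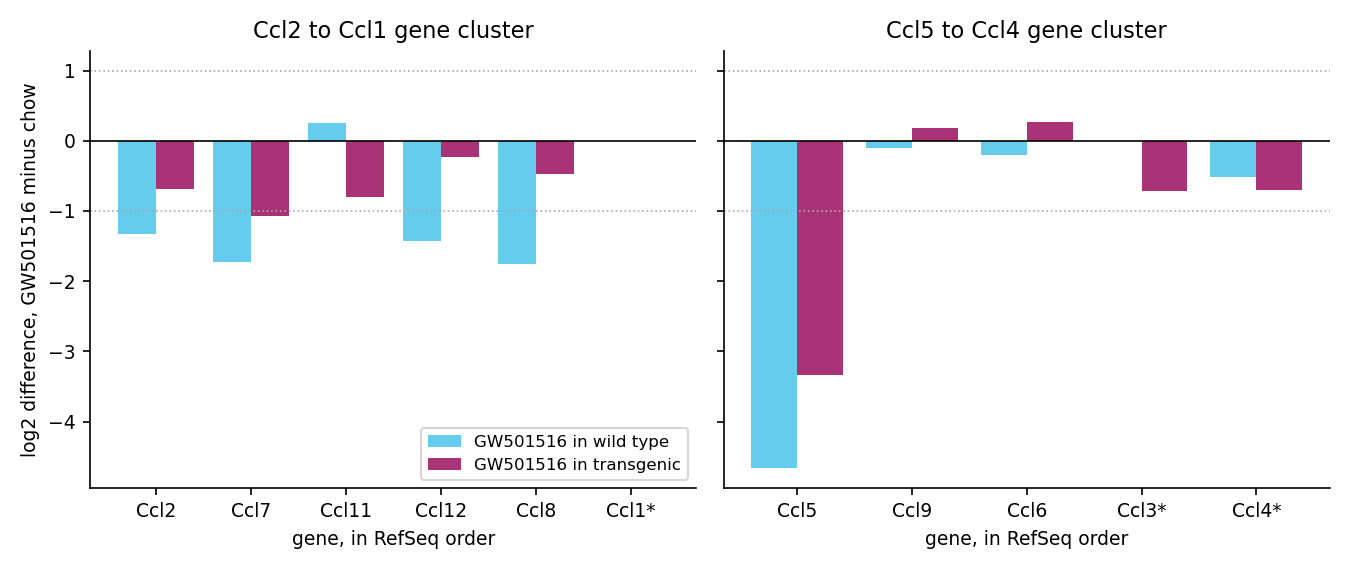
Log2 difference with GW501516 in wild type and in transgenic mice for the genes of 2 Ccl clusters, in RefSeq order and evenly spaced, with asterisks on genes that did not reach an intensity of 139. Dotted lines mark 2-fold. Ccl11 has a value of 0.26 in wild type between 4 neighbours at -1.32 to -1.75.

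Ligands induced by interferon had their highest intensity in transgenic mice on chow. Cxcl9, which attracts Cxcr3-bearing T cells, read 538.3 in wild type on chow, 999.8 in transgenic on chow, 187.6 in wild type on GW501516 and 250.6 in transgenic on GW501516. Both GW501516 pools were low, by 2.87-fold in wild type and 3.99-fold in transgenic mice. The related Cxcl10 and Cxcl11 did not reach the filter and are named after their values were seen. Cxcl10 read 69.2, 88.6, 29.2 and 15.8 in the same order, which is 2.37-fold lower with GW501516 in wild type and at least 4.32-fold lower in transgenic mice. Cxcl11 read 29.1, 58.2, 26.2 and 35.6, and its second probe set lay below the floor on all 4 arrays. Cxcl16, a membrane-anchored ligand of Cxcr6, read 335.3, 306.6, 109.6 and 160.6. It was 3.06-fold lower with GW501516 in wild type and 1.91-fold lower in transgenic mice, and its 2 probe sets gave -0.93 and -1.18 (log2) there. Cx3cl1, fractalkine, a membrane-anchored ligand made by epithelium and endothelium, went the other way. It read 78.7 in wild type on chow and 180.1 in transgenic on chow, 2.29-fold higher, and 124.9 and 172.2 on GW501516. Cx3cl1 was the 1 kept gene at least 2-fold higher with the transgene on chow. Its other probe sets lay below the floor in both chow pools, and with the mean over probe sets no kept gene was higher in that comparison. In that comparison 6 of 10 luminal markers were at least 2-fold higher, and their part in the Cx3cl1 value was not tested.

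Several genes below the filter were also high in the transgenic chow pool alone, and they are named here after their values were seen. Ccl20, an epithelial ligand of Ccr6, read 3.5 in wild type on chow, 130.9 in transgenic on chow, 4.6 in wild type on GW501516 and 2.0 in transgenic on GW501516. It was thus measured on 1 array, at least 6.39-fold higher there than in wild type on chow. Cxcl2, a neutrophil attractant that binds Cxcr2, read 14.2, 51.5, 7.3 and 10.7, at least 2.51-fold higher with the transgene on chow. Summed neutrophil markers, 7 on the array, were 558.5, 503.2, 256.9 and 617.7 in the same order of pools. Of the 25 genes that did not reach the filter, 11 (44.0%) had their highest value on the transgenic chow array. Among them were Ackr4 and Ccr8, which were below the floor on every array, so their order means little. Over all genes above the floor on at least 1 array, kept or not, the share was 31.2%, and over such member genes 30.4%. The transgenic chow array is the one with the low Gapdh and BioB values, and their part in these values was not tested.

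Promoter sequence was at hand for 39 of the 52 genes, in 43 windows from the RefSeq annotation of GRCm38.p6, and the 250 bases before each start were searched, on both strands unless stated. The κB consensus, which NF-κB binds, was found in 10 of 43 windows (23.3%) against 7.25% of all 32851 promoters of the same length. Overlapping matches offset by 1 base, as in Cxcl10 and Cxcl2, are 1 stretch. An interferon-type element, GAAA with any 2 bases and GAAA, was found in 2 windows (4.65%), those of Cxcl10 and Cxcl14, against 2.98% of all promoters. The shorter STAT element TTCNNNGAA was found in 4 windows (9.3%, against 7.02% of all promoters). TATAAA, searched on the gene's strand alone, was found in 11 (25.6%, against 7.59%). The PPAR element of a pair of AGGTCA half-sites separated by 1 base was found in 0 of 43 windows and 11 of 32851 promoters. Of the 15 genes at least 2-fold lower with GW501516 in wild type, 10 had sequence, in 11 windows, and 1 window, of Ccr6, held the κB consensus. A match is a description of the letters and not of binding. Sequences are given for 3 of the genes that were highest in transgenic mice on chow and hold the κB consensus, chosen after their values were seen, and for Cxcl13, which was lower in all comparisons and holds neither it nor the interferon-type element. They are written 5′ to 3′ on the gene's strand and end at the base before the start, with the κB consensus and the interferon-type element in capitals. Cxcl10 lies on the minus strand at chr5:92348890-92349139, and its element matches begin 213 (interferon type), 159 and 104 (κB) bases before the start. Ccl20 lies on the plus strand at chr1:83116516-83116765 with a match beginning 80 bases before the start. Cxcl2 lies on the plus strand at chr5:90903649-90903898 with a match beginning 97 bases before it. Cxcl13 lies on the plus strand at chr5:95956689-95956938.
Cxcl10: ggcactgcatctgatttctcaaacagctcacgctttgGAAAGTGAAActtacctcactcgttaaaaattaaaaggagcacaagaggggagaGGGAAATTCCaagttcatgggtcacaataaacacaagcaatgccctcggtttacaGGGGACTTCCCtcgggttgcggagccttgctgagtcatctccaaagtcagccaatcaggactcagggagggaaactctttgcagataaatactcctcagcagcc
Ccl20: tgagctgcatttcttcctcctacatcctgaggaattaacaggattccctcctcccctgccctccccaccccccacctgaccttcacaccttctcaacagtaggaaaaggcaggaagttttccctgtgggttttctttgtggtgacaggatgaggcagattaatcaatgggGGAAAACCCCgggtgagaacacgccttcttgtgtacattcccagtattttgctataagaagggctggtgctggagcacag
Cxcl2: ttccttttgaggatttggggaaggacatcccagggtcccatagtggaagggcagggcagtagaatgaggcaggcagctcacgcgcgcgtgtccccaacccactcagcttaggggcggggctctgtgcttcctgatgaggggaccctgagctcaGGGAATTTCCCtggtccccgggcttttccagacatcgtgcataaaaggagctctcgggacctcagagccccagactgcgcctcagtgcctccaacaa
Cxcl13: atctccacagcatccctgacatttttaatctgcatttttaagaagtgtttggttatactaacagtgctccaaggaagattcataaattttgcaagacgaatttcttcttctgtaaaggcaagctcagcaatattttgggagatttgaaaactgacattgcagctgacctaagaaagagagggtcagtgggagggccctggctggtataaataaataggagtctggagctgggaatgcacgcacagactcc

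**Figure D4:**
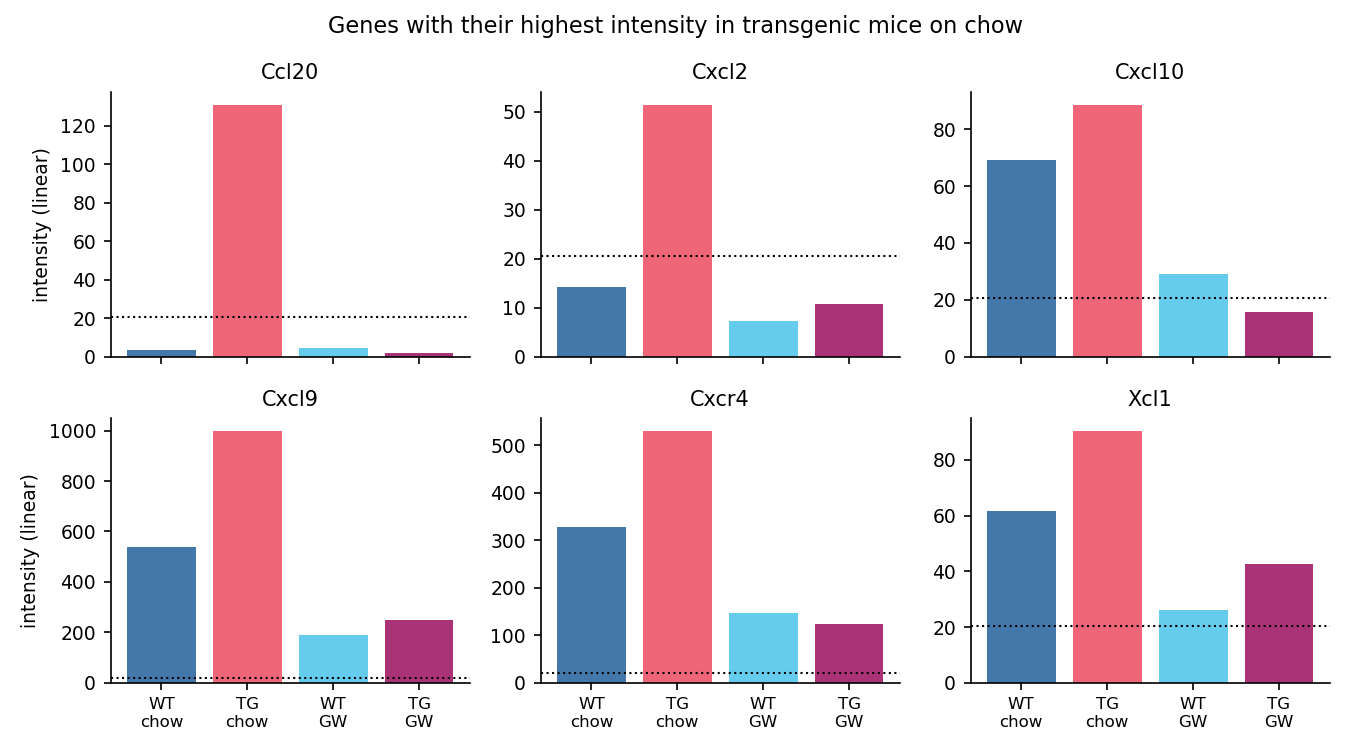
Intensity (linear scale from 0) of 6 genes whose highest value was in transgenic mice on chow, 1 bar per pool (WT, wild type, TG, transgenic, GW, GW501516), with the floor of 20.5 dotted. The genes were chosen after their values were seen. Ccl20 and Cxcl2 are above the floor in 1 pool, while Cxcl9 and Cxcr4 are above it in all 4.

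Among the kept ligands of epithelial and mucosal surfaces, Cxcl17 reached 2-fold and Cxcl14 and Ccl27a did not. Cxcl15, grouped with the neutrophil attractants, is described with them and also reached 2-fold. Cxcl17, a chemokine of mucosal epithelia, read 193.9 and 216.9 in wild type on chow and GW501516, and 55.0 and 68.3 in transgenic mice. It was 3.53-fold lower with the transgene on chow and 3.18-fold lower on GW501516, comparisons that share no array, and differed by 1.12-fold and 1.24-fold with GW501516. Cxcl17 and Cxcl13 were the 2 kept genes at least 2-fold lower with the transgene on both diets, of 11 on chow (18.2%) and of 3 on GW501516 (66.7%), against 5.86% and 18.3% for all kept genes. Cxcl15, a mouse CXC chemokine known from lung epithelium that attracts neutrophils, read 892.5 in wild type on chow, 322.6 in transgenic on chow, 568.9 in wild type on GW501516 and 738.9 in transgenic on GW501516. It was 2.77-fold lower with the transgene on chow and 2.29-fold higher with GW501516 in transgenic mice, the 1 kept gene higher in that comparison. Cxcl14, a chemokine of epithelia and skin, read 433.1, 487.9, 404.5 and 317.3 in the order wild type on chow, transgenic on chow, wild type on GW501516 and transgenic on GW501516. A second Cxcl14 probe set read 183.2, 191.0, 248.7 and 240.4, so that GW501516 gave -0.10 and -0.62 (log2, wild type and transgenic) on the first and 0.44 and 0.33 on the second. The Cxcl14 probe sets disagree in sign. Ccl27a, a keratinocyte ligand of Ccr10, read 219.9, 240.8, 195.1 and 162.2 from a probe set that can share transcripts with other genes, the same order of pools as the first Cxcl14 probe set. Ccl28, by which lactating mammary epithelium draws IgA plasma cells, read 12.3, 8.7, 13.1 and 22.7. Ccl28 was above the floor in transgenic mice on GW501516 only, so no level can be given in the others. Milk protein genes were brightest in transgenic mice on GW501516 as well, with a summed intensity of 99740 over 8 genes against 16660 to 44920 in the others. Plasma cell markers, 5 on the array, were not. They summed to 3141 in wild type on chow, 14030 in transgenic on chow, 3110 in wild type on GW501516 and 3358 in transgenic on GW501516. The part of either in the Ccl28 value was not tested.

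Of the 16 signalling receptors, 8 were at least 2-fold lower with GW501516 in wild type (against 3.18% of all genes without a filter), 7 in transgenic mice (3.86%) and 0 were higher in either. The 8 include all 6 kept receptors, but Ccr6, Ccr7, Ccr9 and Cxcr3 were kept through wild type on chow alone, so these 4 had to be high there. Ccr7, which takes lymphocytes and dendritic cells into lymph nodes, read 431.0 in wild type on chow, 115.9 in transgenic on chow, 4.0 in wild type on GW501516 and 2.6 in transgenic on GW501516. Both GW501516 values were below the floor, at least 21.0-fold lower in wild type and at least 5.65-fold lower in transgenic mice. Ccr9, the gut-homing receptor for Ccl25, read 288.3, 44.3, 18.1 and 6.9 in the same order, at least 14.1-fold and at least 2.16-fold lower. That Ccr9 probe set is of the kind that can share transcripts with other genes. The other Ccr9 probe sets did not reach the filter. They read 76.9 and 27.0 in wild type on chow and 6.3 and 0.7 on GW501516. In transgenic mice the former was at least 1.22-fold lower with GW501516 (25.1 and 10.9), and the latter lay below the floor on both diets. Ccr6, the Ccl20 receptor of B cells and some T cells, read 149.4, 102.9, 16.9 and 32.2, at least 7.29-fold lower in wild type and 3.196-fold lower in transgenic mice. With a floor at the 40th percentile of all values, Ccr6, Ccr7, Ccr9, Ccl7 and Ccl22 no longer reached 2-fold with GW501516 in transgenic mice.

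Cxcr4, the receptor for Cxcl12 on most leukocytes, read 327.3 in wild type on chow, 531.2 in transgenic on chow, 146.5 in wild type on GW501516 and 122.9 in transgenic on GW501516. It was 2.23-fold and 4.32-fold lower with GW501516 in wild type and transgenic mice, while its ligand Cxcl12 differed by 1.34-fold and 1.02-fold. Cxcr3, the receptor for Cxcl9 and Cxcl10 on effector T cells, read 189.7, 118.8, 83.5 and 72.3 and was 2.27-fold lower in wild type and 1.64-fold in transgenic mice. Ccr2, the monocyte receptor for Ccl2, read 201.2, 166.9, 97.8 and 92.1, 2.06-fold lower with GW501516 in wild type. A second Ccr2 probe set read 136.4, 105.0, 139.3 and 117.4, a difference of 0.03 (log2), so the Ccr2 probe sets disagree. Among receptors below the filter, named after their values were seen, Cxcr5, the Cxcl13 receptor of B cells, read 134.8 and 60.7 on chow and 5.9 and 4.0 on GW501516, in wild type and transgenic mice. Cxcr6, on effector T and NK cells, read 114.2 and 107.8 on chow and 16.2 and 20.5 on GW501516. A second Cxcr6 probe set read 78.1 and 127.3 on chow and 7.3 and 2.6 on GW501516. The lymphocyte receptors were low where B cell markers were low. All 5 kept B cell markers were at least 2-fold lower with GW501516 in each genotype, against 3.25% (wild type) and 4.07% (transgenic) of all kept genes. Of these 5, Cr2 and Fcer2a were kept through wild type on chow alone, so they had to be high there. Ms4a1 (CD20) read 1028, 625.3, 24.5 and 17.6. B cell markers below the floor numbered 1 of 9 on each chow array, 5 on wild type GW501516 and 6 on transgenic GW501516. The part of these cells in the receptor values was not tested.

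**Figure D5:**
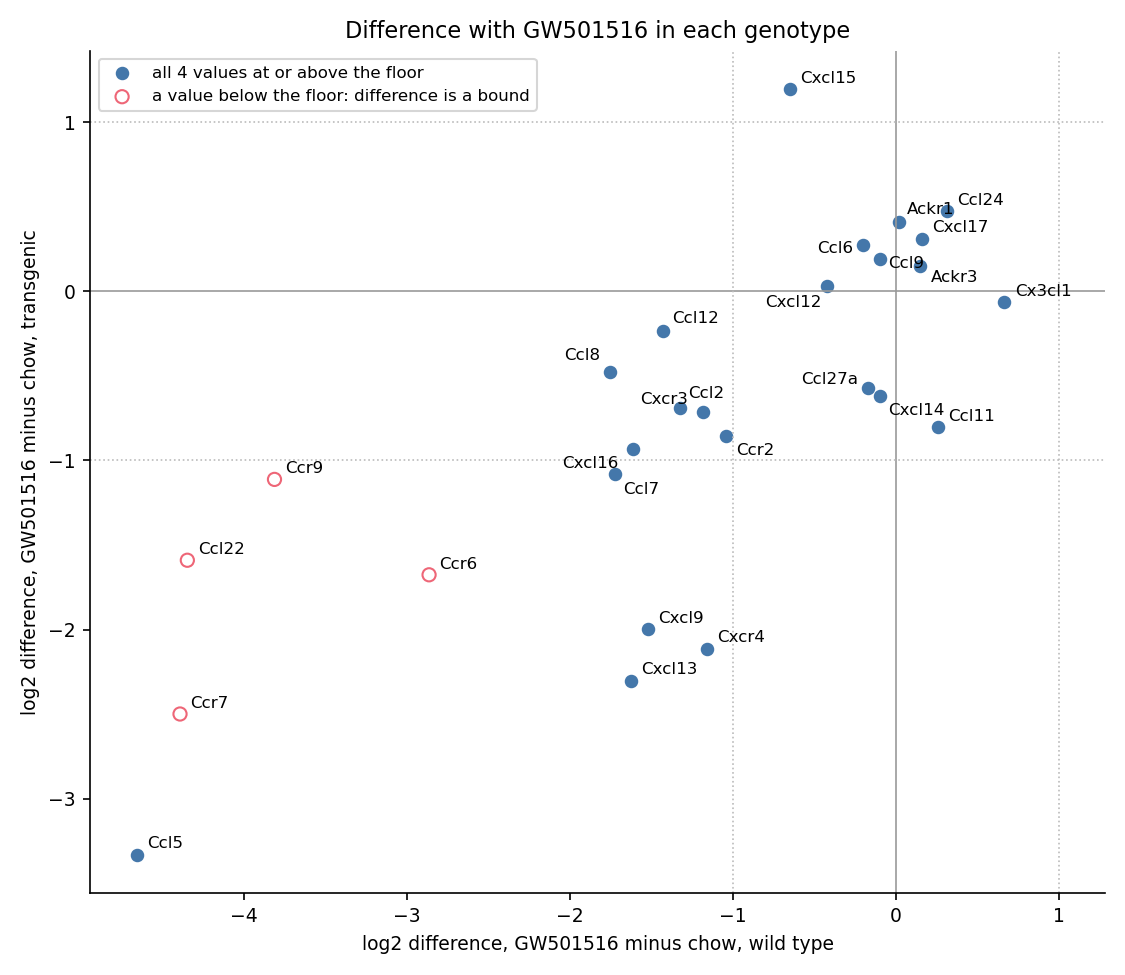
Log2 difference with GW501516 in wild type (horizontal) and in transgenic mice (vertical) for the 27 kept genes. Dotted lines mark 2-fold, and open circles are genes with a value below the floor, whose differences are bounds. The 9 genes in the lower left are at least 2-fold lower in both genotypes, and Cxcl15 stands alone above 2-fold on the vertical axis.

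The 2 kept atypical receptors reached 2-fold in no comparison. Ackr3, which removes Cxcl12, read 2200 in wild type on chow, 1513 in transgenic on chow, 2440 in wild type on GW501516 and 1681 in transgenic on GW501516. It was 1.45-fold lower with the transgene on each diet and differed by 1.11-fold with GW501516 in each genotype. Ackr1, which carries chemokines across venules, read 394.1, 278.7, 399.1 and 370.1. Endothelial markers, 7 of 7 kept, had none at 2-fold in any of the 4 comparisons. Ackr2, a scavenger of inflammatory CC chemokines, did not reach the filter and read 40.7, 29.1, 61.2 and 28, which is 2.19-fold lower with the transgene on GW501516. Ackr4 lay below the floor in all pools.

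How far the GW501516 effect in transgenic mice departed from that in wild type could be read for 24 of the 27 genes. Ccl22, Ccr7 and Ccr9 were below the floor in both GW501516 pools, which leaves their transgene difference on chow and no difference of effects. Of the 24, 5 had a GW501516 difference at least 2-fold higher in transgenic mice than in wild type. The share was 4.14% over all kept genes with a readable difference. For 1 gene the difference was at least 2-fold lower, against 5.12%. With floored pairs counted, the shares of all kept genes were 4.42% higher and 5.25% lower. Of those past 2-fold, 45.7% were higher, and shifting the arrays to one median made this 55.8%. The 5 were Cxcl15 (1.85 on the log2 scale), Ccl5 (1.33), Ccl8 (1.28) and Ccl12 (1.19), measured on all 4 arrays, and Ccr6, a bound (at least 1.19). All but Cxcl15 had lower values with GW501516 in both genotypes, by less in transgenic mice. The 1 gene with a lower difference was Ccl11 (-1.06), which was -0.975 when arrays were shifted to one median. This comparison uses all 4 arrays, and the transgenic chow array is part of it.

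The 25 genes that did not reach the filter complete the set. Ackr4, Ccl1, Ccr1l1, Ccr4, Ccr8 and Cxcl5 lay below the floor on all 4 arrays. The other 19 reached at most 138.7, which was Ccr1, a receptor for Ccl5 and Ccl9, in wild type on chow, just under the filter. Xcl1, the C ligand of T and NK cells, read 61.7 in wild type on chow, 90.5 in transgenic on chow, 26.1 in wild type on GW501516 and 42.6 in transgenic on GW501516, 2.36-fold and 2.12-fold lower with GW501516. Cx3cr1, the fractalkine receptor of monocytes and macrophages, read 71.6, 73.6, 52.8 and 30.8. Ccl17, a second Ccr4 ligand, read 39.8 and 37.4 on chow and lay below the floor on GW501516. Ccl3 was above the floor in transgenic mice on chow only (33.6). The neutrophil receptor Cxcr2 (38.9) and the eosinophil receptor Ccr3 (21.6) were above it in wild type on chow only. Ccl4, Ccl25, Ccr10 and Cxcl1 read between 16.6 and 70.9 and reached 2-fold in no comparison.

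Genes that carry the chemokine signal inside the cell were lower in part. Of 28 listed genes of signal transduction, 22 were on the array and 17 were kept. With GW501516, 5 were at least 2-fold lower in wild type (3.25% of all kept genes) and 2 in transgenic mice (4.07%). In the same comparisons 0 were higher (3.18% and 3.98% of all kept genes). Rac2, the leukocyte GTPase of actin movement, read 1317 in wild type on chow, 351.4 in transgenic on chow, 228.3 in wild type on GW501516 and 182.5 in transgenic on GW501516, 5.77-fold lower in wild type. Rgs1, which dampens receptor signals, was 3.71-fold lower in wild type and 4.37-fold in transgenic mice. Prkcb, a protein kinase C of lymphocytes, was 3.77-fold and 2.62-fold lower, and Dock2, which activates Rac, 3.37-fold lower in wild type. Dock2 was kept through wild type on chow alone and Rgs1 through transgenic on chow alone, so each had to be high there. Among those not kept, Vav1 was 3.77-fold and 2.02-fold lower with GW501516 in wild type and transgenic mice, and Fgr 2.55-fold lower in wild type. With the transgene, 4 of the 17 were lower on chow (3.7% of all kept genes) and 0 on GW501516 (1.19%). Of 21 listed inducers of chemokine genes, 19 were on the array and 11 were kept. With GW501516, 2 were at least 2-fold lower in wild type and 3 in transgenic mice. With the transgene, 1 was lower on chow and 0 on GW501516, and 0 of the 11 were higher in any of the 4 comparisons. The shares over all kept genes are those just given, and for higher genes with the transgene 5.46% on chow and 2.82% on GW501516. Among those not kept, Il1b was 2.35-fold higher with the transgene on chow and 2.29-fold lower with GW501516 in transgenic mice. Lta, Map3k14, Nfkb2 and Stat2, also not kept, were at least 2-fold lower in at least 1 comparison. Ltb, lymphotoxin β, which sustains Cxcl13 in lymphoid stroma, read 1948, 956.8, 83.1 and 74.2 in the same order of pools. Relb, an NF-κB subunit, was 2.81-fold and 2.21-fold lower with GW501516 in wild type and transgenic mice. Among 9 relatives and partners outside the naming rule, 5 were kept. Of these 5, Cd74, a receptor part for the cytokine Mif, was the 1 at 2-fold. It was 3.05-fold lower with GW501516 in wild type and 2.20-fold lower with the transgene on chow. Among those not kept, Ppbp was 2.29-fold and 2.10-fold higher with GW501516 in wild type and transgenic mice. Xcr1 was 2.26-fold lower with GW501516 in wild type, and Ccrl2 2.10-fold lower in transgenic mice.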

How the data were processed

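The authors deposited 1 linear intensity for each probe set and array, from 4 Affymetrix arrays. Per the labels' protocols, each array held labelled cRNA from a pool of 5 mice. Software for summarisation is not given in the sources used here, nor is a build. After trimming 2% of values at each end, the array means ran from 500.17 to 500.2, so the deposited intensity values share 1 scale.

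Probe sets took symbols from the platform table, updated by gene ID (RefSeq, GRCm38.p6): 20393 had 1 symbol, 691 several and 1606 none. Control probe sets named no gene. A gene was read from its brightest probe set by mean. The median log2 difference of its other probe sets departed from it with SDs of 0.41 to 0.50 over 3895 genes, which holds no scatter between arrays. The small number of arrays limits precision. Python 3.11.15, numpy 2.4.6 and pandas 2.3.3 were used, and the steps were tested on simulated data.

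The rule for named genes took all kept members with their role, those at 2-fold with their 4 intensities, and up to 4 genes per list and comparison by size. Members and lists were chosen with earlier results of these data known. The alternatives varied scaling, the floor, the filter and the choice of probe set. Counting each probe set and a 1.5-fold limit were added after seeing the data.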

Additional observations from a re-analysis of the deposited data

Results flagged for a closer look

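For 2 genes the difference went opposite ways in the 2 groups compared, each side larger than the scatter between probe sets of a gene, and with 1 array a group this was not tested. Cxcl15 had a GW501516 difference of -0.65 (log2) in wild type and 1.20 in transgenic mice, 1.85 apart. Ccr6 had a transgene difference of -0.54 on chow and 0.65 on GW501516, 1.19 apart, where the wild type GW501516 value of 16.9 was below the floor.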

How the results depend on the processing

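The counts and medians kept within 1.5 times, or within the scatter between probe sets, under most alternatives, which varied the scaling, the floor, the filter and the probe set, and no 2-fold difference of a kept gene changed sign. Exceptions follow. For the number of genes at least 2-fold lower with GW501516 in wild type (15), a filter on the mean of the arrays gave 8 of 18 genes (44.4%, against 2.31% of all genes), and the median became -0.535, or -0.397 without a filter. In transgenic mice the number lower (9) was 4 with that filter or with a floor at the 40th percentile, 16 of 52 without a filter and 15 at 1.5-fold. For the transgene on chow, the number higher (1) was 4 without a filter, 3 at 1.5-fold, and 0 with the filter on the mean, the stricter filter or the mean over probe sets. The number lower (11) was 5 with the filter on the mean, and the median was -0.0865 without a filter. At 1.5-fold, the transgene on GW501516 gave 5 lower and 1 higher, and GW501516 in wild type 1 higher. The difference of GW501516 effects, with the 3 floored pairs counted (8 higher), gave 4 higher with the filter on the mean, and its number lower (1) was 0 when arrays were shifted to one median, 3 without a filter and 4 at 1.5-fold. Filters change which genes are counted, and otherwise the cause was not tested. No paired analysis was possible because each group had 1 array, and for the same reason no array could be left out. The comparisons without the transgenic chow array are GW501516 in wild type and the transgene on GW501516.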
